A study of Mus musculus with 15 samples.

Results

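Pericytes and vascular smooth muscle cells are the mural cells that wrap the vessels of the brain, and their transcripts were followed here through 9 genes: Acta2, Myh11, Tagln, Cnn1, Des, Pdgfrb, Notch3, Rgs5 and Vtn. They were chosen by symbol, as the pericyte and smooth muscle genes among the 29659 genes with a value. The rule uses no measured value, although it was set with earlier results of these data known. Bulk RNA-seq of polyA RNA measured the thalamus of 4.5-month-old mice in 15 libraries. All 4 genotypes were homozygous for a human APOE4 knock-in. The 5EL group (n = 5) carried the 5xFAD amyloid transgenes with intact Lilrb4a (+/+), the 5ELKO group (n = 4) carried 5xFAD with both Lilrb4a alleles deleted (-/-), the EL group (n = 3) was APOE4 with intact Lilrb4a and no 5xFAD, and the ELKO group (n = 3) was APOE4 with Lilrb4a -/- and no 5xFAD. Lilrb4a encodes an inhibitory receptor of myeloid cells, and the methods name a knockout line and no Cre, so the deletion was not limited to a cell type. The 5xFAD transgenes are driven by the Thy1 promoter, mainly in neurons. The mice were perfused with phosphate-buffered saline before dissection.

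In the wall of arteries and arterioles, smooth muscle cells contract through actin and myosin filaments and set vessel calibre. Pericytes sit on capillaries inside the basement membrane that they share with the endothelium. Endothelial cells recruit and keep them through platelet-derived growth factor B, which acts on the receptor Pdgfrb, while Notch3 responds to ligands on neighbouring cells and maintains arterial smooth muscle. In cerebral amyloid angiopathy, which is common in APOE4 carriers, amyloid is laid down in this wall. In bulk tissue, fewer cells of a type and less RNA per cell cannot be told apart.

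The libraries were first set against their labels. The Lilrb4a log2 value was 2.33 in each of the 7 libraries labelled as lacking it and between 2.34 and 2.66 in the 8 others. All of the 8 thus lay above all of the 7. Every value was nevertheless under 3.32, the filter on low values that is called the detection threshold here. Mouse Apoe, which the knock-in replaces, stood at 10.9 in the library labelled ELKO replicate 1 and between 5.92 and 6.37 in the other 14. The mean log2 value of 12 choroid plexus genes was 7.95 in 5EL replicate 1 and 8.31 in ELKO replicate 2, against 5.75 to 6.28 in the other 13 libraries. All 8 thalamic genes of a fixed list were above the detection threshold, with list means of 11.52 to 11.8. The calls of the 9 genes are given with and without these 3 libraries.

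All 9 genes were above the detection threshold, a log2 value of 3.32, in 15 of 15 libraries. The values are the deposited log2 values, which the text gives directly, and they carry no read counts, so the depth behind a single gene is unknown. Levels were compared between genes only after division by exon length, on the scale of log2 value per kb. Vtn, the adhesive matrix protein vitronectin that brain pericytes secrete, was the highest at 9.21 log2 per kb. Rgs5, a regulator of G protein signalling typical of pericytes, followed at 9.11. This pair lay 0.10 apart, less than their combined spread within groups (SD 0.186), although Vtn was the higher of them in 14 of 15 libraries. A drop of 2.36 separated them from the contractile gene Acta2 at 6.75 log2 per kb. Pdgfrb (6.45), Notch3 (6.11), Tagln (6.08) and Myh11 (5.25) came next, and Notch3 and Tagln could not be ordered, with a difference of 0.028 against a combined SD of 0.217. The order ended with Des at 3.34 and Cnn1 at 2.13.

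**Figure D1:**
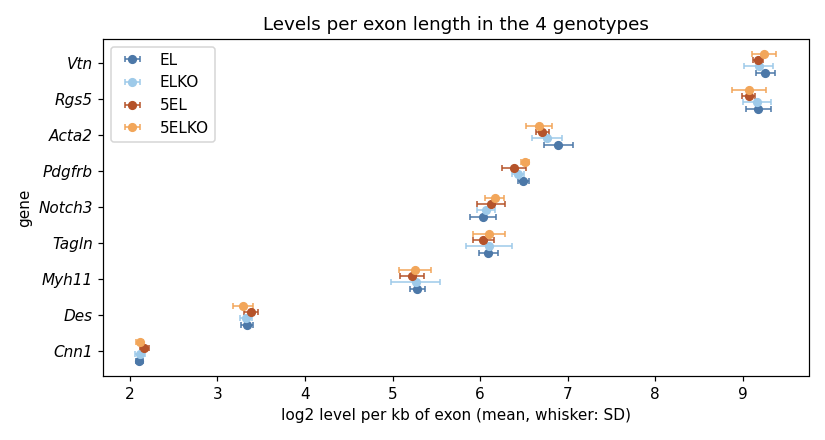
Level of each gene in log2 value per kb of exon, as the group mean with the SD over libraries, for the 4 genotypes (5EL, n = 5, 5ELKO, n = 4, and 3 libraries each of EL and ELKO). The order of the genes spans from Cnn1 at 2.13 to Vtn at 9.21, and the 4 genotypes of a gene lie close together.

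The gene models, on GRCm38 with GENCODE M21, place Acta2 at chr19:34241090-34255590 and Myh11 at chr16:14194535-14291372, both on the minus strand. Rgs5 lies at chr1:169655501-169695813 and Vtn at chr11:78499091-78502324, both on the plus strand. Reads were counted over exons without regard to strand. For Tagln, with 1988 exonic bases, the overlaps with the plus-strand gene Pcsk7 and the transcript Gm48529 sum to 1349 bases. A base under both is counted for each of them. The listed counting parameters do not assign a read to several genes, so reads over the shared bases may be uncounted and the Tagln level per kb too low. Smaller overlaps with antisense transcripts cover 220 bases of Des and 488 bases of Notch3. No exon of the other 6 genes overlaps another gene.

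Contractile genes are classically driven by serum response factor through the CArG box, 2 C, 6 A or T and 2 G, and Notch signals end at the factor Rbpj, whose core motif is TGGGAA. RefSeq promoter windows (GRCm38.p6, 250 bases before to 50 after the start) were at hand for 6 of 9 genes, namely Acta2, Cnn1, Des, Notch3, Rgs5 and Vtn. An exact CArG box on either strand was in 0 of these 6 windows and in 1.63% of all 32851 windows. With 1 other base allowed among the 6 central ones, a search added after the exact one was seen, it was found in Acta2 alone, against 9.98% of all windows. The Acta2 and Rgs5 promoters are shown because these genes moved together across libraries, as described further on. The capitals mark the 2 Acta2 matches, which run from base -84 to -75 and from -34 to -25 relative to the start. The Rgs5 window holds no match and is printed in lower case.
Acta2 promoter, chr19:34255324-34255623, minus strand: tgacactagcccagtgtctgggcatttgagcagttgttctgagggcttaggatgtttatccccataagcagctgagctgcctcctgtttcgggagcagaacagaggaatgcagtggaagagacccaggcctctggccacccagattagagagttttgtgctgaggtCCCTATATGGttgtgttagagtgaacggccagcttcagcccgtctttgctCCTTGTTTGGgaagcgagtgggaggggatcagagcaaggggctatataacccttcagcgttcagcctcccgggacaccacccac
Rgs5 promoter, chr1:169655251-169655550, plus strand: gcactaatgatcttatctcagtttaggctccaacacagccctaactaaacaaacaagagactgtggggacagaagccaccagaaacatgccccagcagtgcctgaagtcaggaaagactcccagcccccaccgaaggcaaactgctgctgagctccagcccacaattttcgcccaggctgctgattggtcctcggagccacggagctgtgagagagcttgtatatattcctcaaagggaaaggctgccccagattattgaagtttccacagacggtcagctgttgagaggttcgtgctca
The Rbpj core was in 2 of 6 windows, 1 copy in Acta2 and 3 in Vtn, and in 25.6% of all windows. These matches are letters in a window and were not tied to any measured binding.

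The contractile genes are given first, each with its log2 value in replicates 1 onward of every group. Acta2, the smooth muscle actin of the contractile filament, read 7.84, 8.10 and 8.14 in EL, 7.82, 7.78 and 8.10 in ELKO, 7.75, 7.95, 7.79, 7.86 and 7.88 in 5EL, and 7.73, 7.69, 7.80 and 8.02 in 5ELKO. Its highest values were in EL replicates 2 and 3, ELKO replicate 3 and 5ELKO replicate 4, and the 4 groups overlapped. Myh11, the heavy chain of smooth muscle myosin, read 8.12, 8.29 and 8.21 in EL, 8.18, 7.91 and 8.47 in ELKO, 8.30, 8.20, 7.92, 8.13 and 8.19 in 5EL, and 8.10, 8.01, 8.17 and 8.44 in 5ELKO. The spread lay within groups rather than between them: ELKO held both the highest and the lowest of the 15 values. Its SD within groups of 0.179 was larger than that of 88.0% of genes of like level. Tagln, the actin-bundling protein transgelin, read 6.96, 7.10 and 7.19 in EL, 7.002, 6.89 and 7.39 in ELKO, 6.95, 6.92, 6.998, 7.22 and 7.04 in 5EL, and 7.33, 6.91, 6.99 and 7.14 in 5ELKO. Here too ELKO replicate 3 was the highest and ELKO replicate 2 the lowest library.

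Cnn1, the actin-binding protein calponin that restrains contraction, read 3.56, 3.51 and 3.59 in EL, 3.51, 3.62 and 3.58 in ELKO, 3.57, 3.58, 3.66, 3.69 and 3.59 in 5EL, and 3.54, 3.53, 3.61 and 3.57 in 5ELKO. All of its values lay just above the detection threshold, where the deposited scale is compressed. Des, the intermediate filament desmin of muscle and pericytes, read 5.26, 5.16 and 5.30 in EL, 5.16, 5.23 and 5.30 in ELKO, 5.28, 5.29, 5.17, 5.34 and 5.39 in 5EL, and 5.35, 5.10, 5.12 and 5.23 in 5ELKO. The groups overlapped, and 5ELKO held the lowest library.

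Among the receptors, Pdgfrb read 8.96, 9.01 and 8.88 in EL, 8.82, 8.95 and 8.89 in ELKO, 8.88, 8.96, 8.61, 8.94 and 8.83 in 5EL, and 8.94, 9.02, 8.99 and 8.93 in 5ELKO. One 5EL library, replicate 3, stood below every other library at 8.61, and the 4 values of 5ELKO lay within 0.10 of each other. Notch3 read 9.10, 9.17 and 8.89 in EL, 9.20, 9.01 and 9.05 in ELKO, 9.29, 9.14, 8.88, 9.21 and 9.20 in 5EL, and 9.15, 9.04, 9.27 and 9.26 in 5ELKO. Both the highest and the lowest Notch3 value came from 5EL, the lowest again in replicate 3.

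Of the genes most typical of pericytes, Rgs5 read 11.19, 11.44 and 11.45 in EL, 11.20, 11.32 and 11.51 in ELKO, 11.30, 11.23, 11.14, 11.33 and 11.27 in 5EL, and 11.06, 11.23, 11.20 and 11.53 in 5ELKO. The top libraries were 5ELKO replicate 4 and ELKO replicate 3, and the lowest was 5ELKO replicate 1. Vtn read 10.16, 10.31 and 10.37 in EL, 10.04, 10.19 and 10.37 in ELKO, 10.20, 10.19, 10.28, 10.16 and 10.14 in 5EL, and 10.13, 10.24, 10.22 and 10.46 in 5ELKO. Again 5ELKO replicate 4 and ELKO replicate 3 stood at the top of the 15, and ELKO replicate 1 at the bottom. Liver also makes vitronectin, and a list of 25 liver genes had means of 4.86 to 5.16 in 5ELKO, 4.61 to 4.91 in 5EL, 4.58 to 5.17 in EL and 4.59 to 4.95 in ELKO. This list includes Ttr, which is also on the choroid plexus list. Its highest means in 5EL and ELKO were in 5EL replicate 1 and ELKO replicate 2, the libraries high in choroid plexus genes. The part of the liver list in the Vtn values was not tested.

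**Figure D2:**
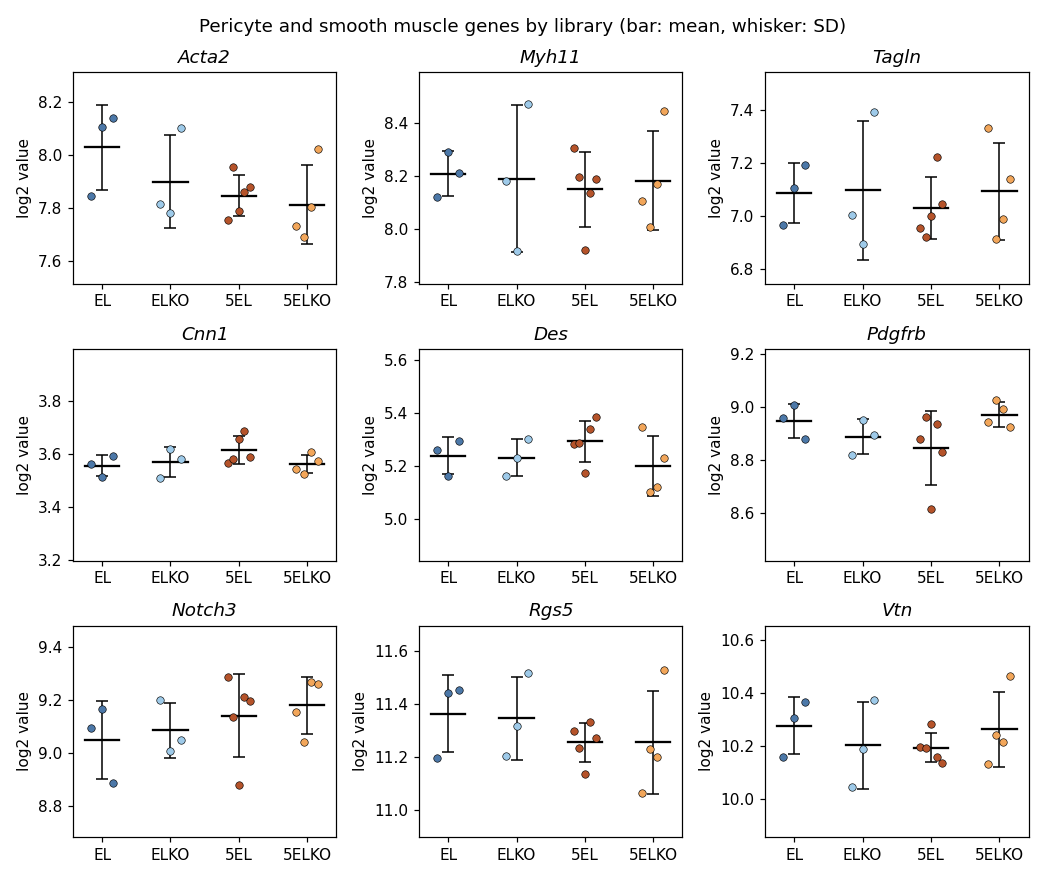
Log2 value of the 9 genes in each library (points), with the group mean (bar) and SD (whisker), for the 4 genotypes. Every panel spans the same 0.8 log2 range around its own centre, and the groups overlap in every panel.

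Loss of Lilrb4a in amyloid-bearing mice, the comparison at the core of the study, was examined as 5ELKO against 5EL with limma over 15743 genes. Of the 9 genes, 0 passed the nominal threshold, an unadjusted p under 0.05, and 2.49% of all genes tested did. At an adjusted p (Benjamini-Hochberg) under 0.05, 0 of 9 passed, against 0.0191% of all genes, which were 3 liver genes. The groups of 0 of 9 genes were free of overlap, compared with 1.06% of all genes. The nearest to a difference was Pdgfrb, which in 5ELKO averaged 8.97 ± 0.0457 (SD, n = 4), compared with 8.84 ± 0.138 (SD, n = 5) for 5EL. This is a log2 difference of 0.13 (SE 0.0676, adjusted p = 0.999), and 2 of 4 5ELKO libraries lay above all 5EL libraries. A two-sided exact permutation test of Pdgfrb gave p = 0.0952. The interval of the fold change ran from 0.986 to 1.21 (95% confidence).

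For the contractile genes the same comparison gave log2 differences of -0.04 for Acta2 (SE 0.0733), 0.03 for Myh11 (SE 0.093), 0.06 for Tagln (SE 0.0892), -0.05 for Cnn1 (SE 0.0357) and -0.09 for Des (SE 0.0618), with adjusted p = 0.999 for each. Notch3 differed by 0.04 (SE 0.0793) and Vtn by 0.07 (SE 0.0618). Rgs5 had the same mean of 11.25 in both groups, with a fold interval of 0.889 to 1.13. Over all 9 genes the 95% intervals reached from a fold of 0.855 (Des) to one of 1.21 (Pdgfrb) on the deposited scale. That scale compresses low genes, so for Des and Cnn1 these bounds cannot exclude larger true folds. The median log2 difference was 0.03 over the 9 genes and 0.0016 over all genes. Beside Vtn, 21 of the 25 liver genes were higher in 5ELKO than in 5EL at the nominal threshold, which 2.49% of all genes passed. The Pdgfrb difference ranged from 0.07 without 5EL replicate 3, its lowest library, to 0.16 without 5EL replicate 2, where it passed the nominal threshold. Without 5ELKO replicate 1, Des passed it at -0.14. In these fits 526 of 15731 and 499 of 15762 genes passed, against 392 of 15743 in the main fit.

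Without amyloid, ELKO was set against EL in a fit on all 15 libraries with 15804 genes. Again 0 of 9 genes passed the nominal threshold (2.35% of all genes) and 0 of 9 an adjusted p under 0.05 (0% of all genes). No gene of the 9 had groups free of overlap, against 4.59% of all genes. Acta2 had the largest difference among the 9, averaging 7.90 ± 0.176 (SD, n = 3) for ELKO, compared with 8.03 ± 0.161 (SD, n = 3) for EL, a log2 difference of -0.13 (SE 0.106, adjusted p = 0.998). The other 8 genes lay between -0.07 (Vtn) and 0.04 (Notch3). With 3 libraries against 3 the smallest possible exact permutation p is 0.1, and the fold intervals of the 9 genes together ran from 0.781 to 1.22. Without ELKO replicate 1, the library high in mouse Apoe, 0 of 9 passed the nominal threshold and the differences ran from -0.09 to 0.06. The Acta2 difference depended on single libraries. It was -0.07 without ELKO replicate 2, which is high in choroid plexus genes, and -0.08 without EL replicate 3. It was -0.22 without EL replicate 1 and -0.23 without ELKO replicate 3. Only in the last of these fits did it pass the nominal threshold. There 1380 of 15830 genes passed, against 372 of 15804 in the main fit. Red cell genes also differed in this comparison, with 3 of 3 lower in ELKO at the nominal threshold (median log2 difference -1.52). Their list means were 4.78 to 4.91 in ELKO against 5.15 to 6.93 in EL. In EL, replicate 3 was highest for both this list (6.93) and Acta2 (8.14). In ELKO, replicate 3 was lowest for the list (4.78) and highest for Acta2 (8.10). Positive differences were seen for 12 of 12 choroid plexus genes and 14 of 14 fibroblast and meningeal genes, of which only Lum passed the nominal threshold. Their part in the Acta2 difference was not tested. The same-numbered libraries of this comparison deviated together, and a block for the number raised the nominal calls over all genes from 372 to 940 while 0 of 9 members passed.

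The amyloid transgenes were examined first with Lilrb4a intact, as 5EL against EL in the same fit. Here 0 of 9 genes passed the nominal threshold, against 7.7% of all genes, and 0 of 9 passed an adjusted p (0% of all genes). Overlap-free groups were seen for 0 of 9 genes and for 3.26% of all genes. Acta2 averaged 7.85 ± 0.0792 (SD, n = 5) for 5EL, compared with 8.03 ± 0.161 (SD, n = 3) for EL, a log2 difference of -0.18 (SE 0.0948, adjusted p = 0.633). Its fold interval was 0.766 to 1.01, 2 of 5 5EL libraries lay below all EL libraries, and the two-sided exact permutation p was 0.107. Without EL replicate 1, the Acta2 difference was -0.27 and passed the nominal threshold. In that fit 3204 of 15831 genes passed it, against 1217 of 15804 in the main fit. The Acta2 difference was -0.14 without EL replicate 2 and -0.13 without EL replicate 3, and did not pass in either. Haemoglobin and other red cell genes also differed in this comparison: their list mean was 5.15 to 6.93 in EL, highest in replicates 2 and 3, and 4.97 to 5.32 in 5EL. Of the 8 thalamic genes 1 had a positive difference, and Lef1 (log2 difference -0.42) and Rora (-0.28) were lower at the nominal threshold. Differences were positive for 12 of 12 choroid plexus genes and 13 of 14 fibroblast and meningeal genes, none of which passed that threshold. The choroid plexus list mean was 7.95 in 5EL replicate 1 and 5.95 to 6.25 in the other 5EL libraries, against 5.75 to 6.17 in EL. The part of these lists in the Acta2 difference, and in those of the other smooth muscle genes given further on, was not tested.

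The other members were nearer to 0 in 5EL against EL. Rgs5 differed by -0.11 (SE 0.0957), Pdgfrb by -0.10 (SE 0.0706), Vtn by -0.08 (SE 0.0802), Myh11 by -0.06 (SE 0.119) and Tagln by -0.06 (SE 0.115). Positive values were seen for Notch3 (0.09, SE 0.0912), Cnn1 (0.06, SE 0.0377) and Des (0.05, SE 0.0641). Thus 3 of 9 differences were positive, with a median of -0.06, whereas the median over all genes was 0.0006. The adjusted p ran from 0.633 to 0.866.

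With Lilrb4a deleted, 5ELKO against ELKO gave 0 of 9 genes at the nominal threshold (2.37% of all genes), 0 of 9 at an adjusted p (0% of all genes) and 0 of 9 without overlap (3.4% of all genes). The 9 log2 differences lay between -0.09 for Rgs5 and 0.10 for Notch3, with adjusted p = 0.999. Those of Myh11, Tagln and Cnn1 were -0.0073, -0.0047 and -0.0074. Acta2 was at -0.09 (SE 0.0992), with fold intervals over the 9 genes from 0.81 to 1.23. Without ELKO replicate 1 the range was -0.16 to 0.15 and 0 of 9 passed.

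Whether the effect of Lilrb4a loss differed with amyloid was tested as an interaction, for which 0 of 9 genes passed the nominal threshold (2.73% of all genes) or an adjusted p (0%). Pdgfrb had an interaction of 0.19 (SE 0.102, adjusted p = 1) and Vtn one of 0.15. The Vtn value was 0.07 without ELKO replicate 1, the library high in mouse Apoe, 0.08 without 5ELKO replicate 4 and 0.23 without ELKO replicate 3, while Pdgfrb was at 0.15 without ELKO replicate 1. The 5xFAD effect averaged over both Lilrb4a genotypes, a comparison added after the data were seen, gave 0 of 9 genes at the nominal threshold (6.57% of all genes), with Acta2 at -0.14 (SE 0.0686, adjusted p = 0.693), Rgs5 at -0.10 and Notch3 at 0.09. Without 5ELKO replicate 4, Acta2 (log2 difference -0.17) and Rgs5 (-0.14) passed the nominal threshold. Notch3 (0.13) passed it without 5EL replicate 3, and Acta2 did without EL replicate 1 (-0.18) or ELKO replicate 2 (-0.16). Without EL replicate 1, 2735 of 15831 genes passed that threshold, against 1038 of 15804 in the main fit. In the other direction, Acta2 moved to -0.08 and Rgs5 to -0.06 without ELKO replicate 3, and Notch3 to 0.05 without EL replicate 3. Without ELKO replicate 1, 0 of 9 genes were called in the interaction or the averaged effect, with averaged values of -0.16 for Acta2, -0.13 for Rgs5 and 0.12 for Notch3. Leaving out 5EL replicate 1 and ELKO replicate 2, the libraries high in choroid plexus genes, left 0 of 9 genes called in all 4 pairwise comparisons, in the interaction and in the averaged effect, where Notch3 moved to 0.06.

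**Figure D3:**
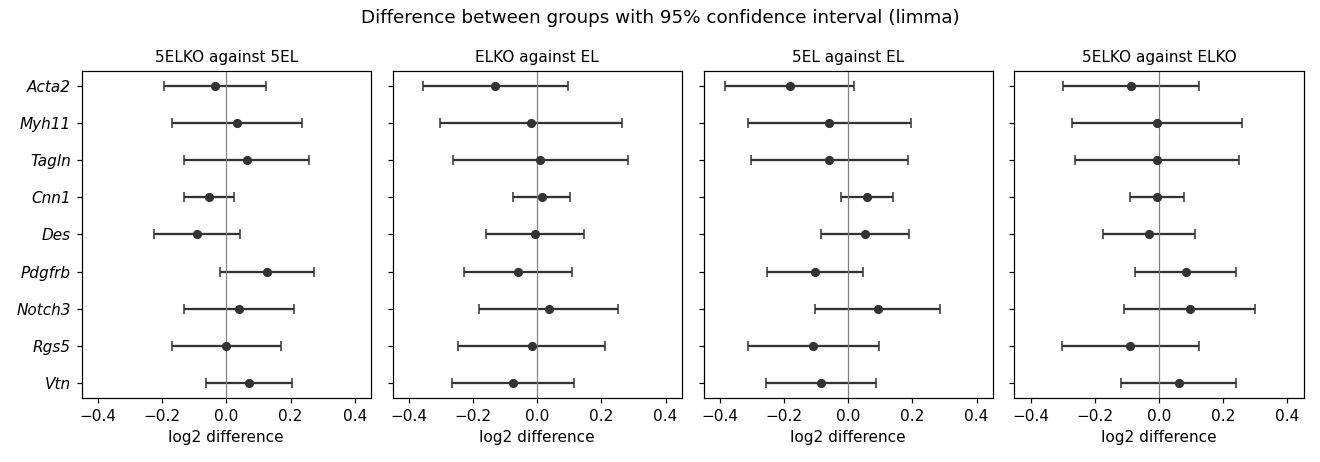
Log2 difference of each gene with its 95% confidence interval from limma in 5ELKO against 5EL, ELKO against EL, 5EL against EL and 5ELKO against ELKO; the first group minus the second. All 36 intervals include 0, and the one that reaches lowest is that of Acta2 in 5EL against EL, from -0.38 to 0.02.

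Further genes listed as markers of these cell types were read. Which cells their transcripts came from in this tissue was not tested. Of 20 other smooth muscle genes, 18 were tested, while Actg2 and Myocd were under the threshold in every library. In 5EL against EL, 4 of 18 were lower at the nominal threshold (3.88% of all genes) and 1 was higher (3.82% of all genes), and 0 passed an adjusted p. By log2 difference, the lower ones were Smtn, which encodes the contractile-cell protein smoothelin (-0.21), Pcp4l1 (-0.35), Mylk, the kinase that phosphorylates the myosin light chain (-0.22), and Synpo2 (-0.26), each with adjusted p = 0.63. Sncg was the higher one (0.35). The median over the 18 genes was -0.08, and 6 of 18 were positive. In 5ELKO against ELKO, 0 of 18 passed in either direction. In ELKO against EL, 2 of 18 passed the nominal threshold, against 2.35% of all genes: Smtn was lower (-0.24) and Sncg higher (0.44), with adjusted p = 0.998 for both, and this comparison shares the EL libraries with 5EL against EL. In 5ELKO against 5EL only Cald1, the actin-binding caldesmon, passed the nominal threshold (log2 difference 0.13), 1 of 18 genes, against 2.49% of all genes.

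Of 16 other pericyte genes, 15 were tested and Foxs1 was under the threshold in every library. In 5ELKO against 5EL, ELKO against EL and 5ELKO against ELKO, 0 of 15 passed the nominal threshold. In 5EL against EL, Kcnj8, a pore subunit of the potassium channel of pericytes, was lower at that threshold (log2 difference -0.29, SE 0.101, adjusted p = 0.63), and the transcription factor gene Tbx18 was higher (0.10), so that 2 of 15 genes passed, against 7.7% of all genes.

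The partners of the receptors were a list of 14 ligands, co-receptors and targets of the platelet-derived growth factor and Notch pathways. In 5EL against EL, 3 of 14 passed the nominal threshold, against 7.7% of all genes. Heyl, a transcriptional target of Notch3, was lower (log2 difference -0.30, SE 0.11), whereas Rbpj (0.17) and the ligand gene Dll1 (0.19) were higher, with adjusted p = 0.63 for all 3. The pathway list thus held nominal calls in both directions. In 5ELKO against 5EL, 0 of 14 passed the nominal threshold. In ELKO against EL only Rbpj did (0.16, adjusted p = 0.998), 1 of 14 genes, against 2.35% of all genes.

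For serum response factor, transforming growth factor beta and endothelin signalling, 13 symbols were listed, which include older and newer names of the same genes. Of these symbols, 11 were found. In 5EL against EL, 2 of 11 were higher at the nominal threshold (3.82% of all genes), the ligand Tgfb1 (log2 difference 0.24) and the receptor Tgfbr1 (0.16), with adjusted p = 0.63. In 5ELKO against ELKO the receptor Tgfbr2 was higher at that threshold (0.28, adjusted p = 0.999), 1 of 11 genes, against 2.37% of all genes. Microglia also express these genes, and their source in this tissue cannot be told apart. Among 7 receptors of vitronectin, Plaur, the urokinase receptor, was higher at the nominal threshold in 5EL than in EL (0.12) and in 5ELKO than in ELKO (0.11). Likewise the integrin Itgb5, also a microglial gene, was higher in 5EL than in EL (0.19) and in 5ELKO than in ELKO (0.19). At an adjusted p, 0 of 7 passed in either comparison, and 2 of 7 passed the nominal threshold in each, against 7.7% and 2.37% of all genes. These comparisons share no library, though they come from the same fit on 15. Vtn itself, the ligand, had differences of -0.08 and 0.06 in them. In 5ELKO against 5EL, Itga5 was the only one of the 7 to pass the nominal threshold (0.11, adjusted p = 0.999 by limma), against 2.49% of all genes.

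The differences between libraries of one group were compared next, since several members were high in the same libraries. After subtraction of the group means, 5ELKO replicate 4 stood above its group by 0.21 for Acta2, 0.26 for Myh11, 0.27 for Rgs5 and 0.20 for Vtn. In ELKO replicate 3 the same 4 genes were above their group by 0.20, 0.28, 0.17 and 0.17. EL replicate 1 was lower than its group for all 4, with Acta2 at -0.18 and Rgs5 at -0.17. Pdgfrb did not share this pattern, at -0.05 in 5ELKO replicate 4 and 0.01 in ELKO replicate 3. The red cell list mean was the highest of its group in 5ELKO replicate 4 (5.47) and the lowest of its group in ELKO replicate 3 (4.78).

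**Figure D4:**
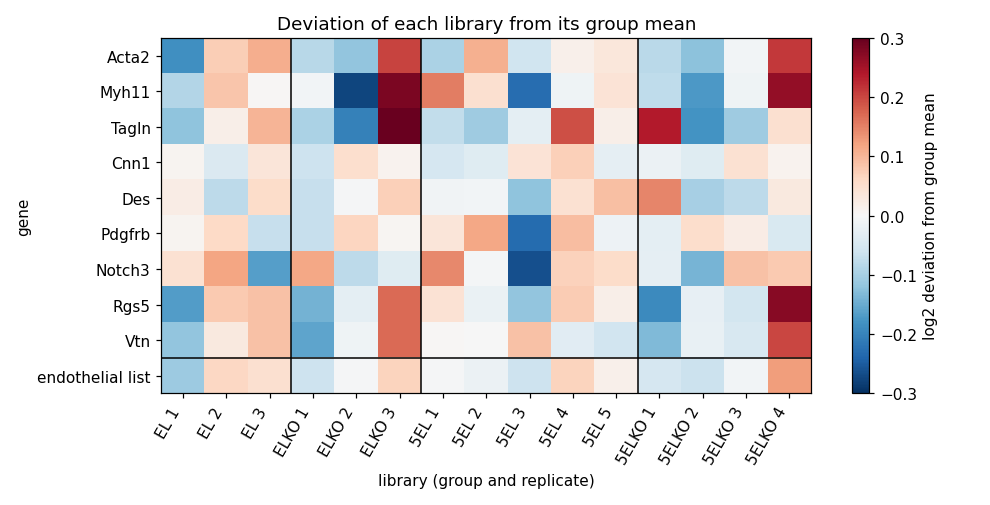
Log2 deviation of each of the 15 libraries from its group mean for the 9 genes and for the mean of 15 endothelial genes (bottom row), red above and blue below. In ELKO replicate 3 and 5ELKO replicate 4, Acta2, Myh11, Rgs5 and Vtn are all raised, by 0.17 to 0.28, while Pdgfrb is near 0.

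Correlations of these deviations were computed for all 36 pairs of members over the 15 libraries, with permutation within groups. The highest were Rgs5 with Vtn (r = 0.817, rho = 0.743, permutation p = 0.0119 and 0.0163), Acta2 with Rgs5 (r = 0.81, rho = 0.75, permutation p = 0.0135 and 0.0201) and Acta2 with Vtn (r = 0.75, rho = 0.604, permutation p = 0.0246 and 0.0577). None of the 36 pairs had an adjusted p under 0.05, and these 3 had adjusted p = 0.146, 0.146 and 0.147 for r and 0.181, 0.181 and 0.297 for rho. Without the 2 libraries farthest from the median, 5ELKO replicate 4 and ELKO replicate 3, r was 0.623, 0.639 and 0.493. Acta2 with Myh11 (r = 0.748) and Myh11 with Rgs5 (r = 0.709) fell to 0.514 and 0.449 without the same libraries. The lowest were Cnn1 with Notch3 (r = -0.375), Notch3 with Vtn (r = -0.291) and Myh11 with Cnn1 (r = -0.271). Pdgfrb had r = -0.202 with Vtn and r = 0.0288 with Acta2.

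The pattern was set against the vessel as a whole through the mean of 15 endothelial genes, a comparison of 9 relations added after the data were seen. The list mean ranged from 9.13 to 9.26 in 5EL, 9.17 to 9.36 in 5ELKO, 9.12 to 9.29 in EL and 9.17 to 9.30 in ELKO. Rgs5 followed it most closely, with r = 0.926 (permutation p = 0.00065, adjusted p = 0.00585) and rho = 0.875 (permutation p = 0.00186, adjusted p = 0.0167), and with r = 0.88 when the 2 farthest libraries were left out. Acta2 had r = 0.837 (permutation p = 0.00801, adjusted p = 0.036) with rho = 0.764 (permutation p = 0.0116, adjusted p = 0.0523), and r = 0.743 without the 2 libraries. Myh11 had r = 0.666 (permutation p = 0.0126, adjusted p = 0.0378) with rho = 0.639 (permutation p = 0.0263, adjusted p = 0.072), which became r = 0.45 without them. For Vtn, r was 0.704 (permutation p = 0.0269, adjusted p = 0.0605) with rho = 0.571 (permutation p = 0.0598, adjusted p = 0.108). The other 5 genes had r between 0.184 (Pdgfrb) and 0.506 (Tagln), with adjusted p from 0.172 to 0.457 for r. By rank, Tagln was close to Myh11, with rho = 0.646 (permutation p = 0.032, adjusted p = 0.072). Its r was 0.687 without its 2 farthest libraries, ELKO replicate 3 and 5ELKO replicate 1. The Rgs5 relation held an adjusted p of 0.00135 to 0.0301 in all 18 alternatives, whereas the adjusted call of Acta2 was lost when any 1 of 6 libraries was left out (up to 0.126) and that of Myh11 for any 1 of 8 (up to 0.194), with 5ELKO replicate 4 giving the highest p for both. Since EL and ELKO libraries of the same number deviated together, the permutation was repeated with these kept together, an alternative added after the data were seen. It gave 0 of 36 pairs of members at an adjusted p under 0.05, and adjusted p = 0.0177 for Rgs5, 0.0274 for Acta2 and 0.0271 for Myh11 with the endothelial list mean. With the endothelial list mean as a covariate, 0 of 9 members passed the nominal threshold in 5ELKO against 5EL, and the signs of Myh11 (-0.04), Notch3 (-0.01) and Rgs5 (-0.07) became negative.

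**Figure D5:**
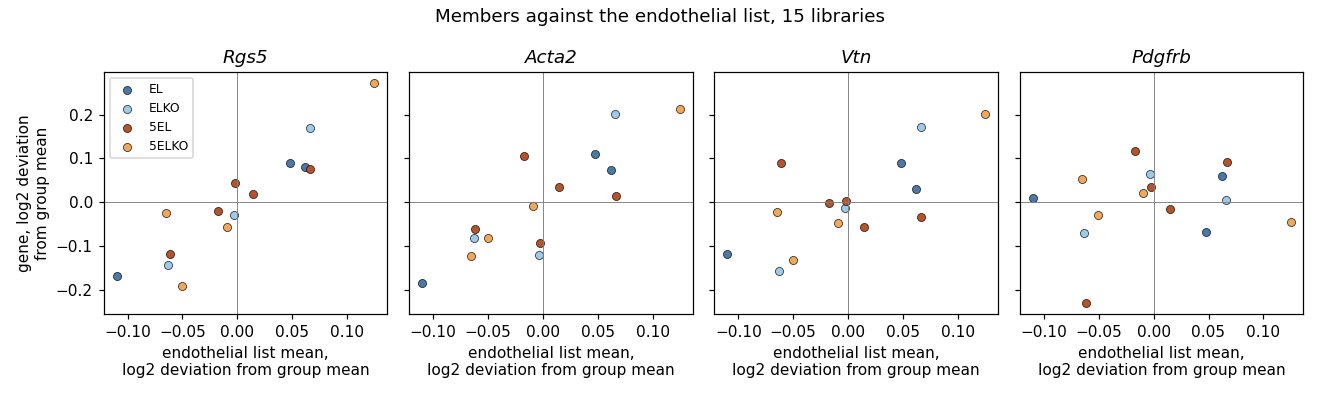
Log2 deviation from the group mean of Rgs5, Acta2, Vtn and Pdgfrb (vertical) against that of the endothelial list mean (horizontal), 1 point per library (n = 15) coloured by genotype. Rgs5 lies closest to a line (r = 0.926), Acta2 and Vtn are looser (0.837 and 0.704), and Pdgfrb has no visible slope (0.184).

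The genes most like 3 of the members were ranked by the same group-centred r over 15 libraries among 15803 genes, as a description without a test. For Rgs5 the first was Enpep (r = 0.924), which encodes aminopeptidase A of pericytes, followed by Rassf2 (0.89), Aspn (0.886), Lap3 (0.876) and 9030612E09Rik (0.871). Vtn ranked 22nd and Acta2 24th for Rgs5. For Acta2 the first was Erg (0.945), an endothelial transcription factor gene, followed by Twistnb (0.91), Sept2 (0.903), Gatm (0.901) and the myelin gene Mag (0.896), while Rgs5 came 95th and Myh11 238th. For Vtn the first 5 were Ak1 (0.927), Trpt1 (0.914), Gtf2a2 (0.914), Gng11 (0.909) and Btf3l4 (0.904), and Rgs5 came 127th. An r above 0.647 was reached by the top 5% of all genes for Acta2, and the bound was 0.572 for Rgs5 and 0.714 for Vtn.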

How the data were processed

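Per the labels and methods, the authors used Trimmomatic 0.39 for trimming, HISAT2 2.2.1 for alignment to GRCm38 and SAMtools 1.16.1, counted read pairs over exons per gene name without strand with featureCounts 2.0.3 and used DESeq2 1.38.3. The deposited values are on a log2 scale, from -2.27 to 18.98 for 29659 genes per library. The transform is not given in the sources used here, and it compresses low genes, so folds of low genes are understated. The depth behind these values is unknown from the files. The study lists total reads and RNA integrity for 5EL and 5ELKO libraries, which are not used here. It names 5 libraries of 5ELKO there, whereas 4 were at hand. The study also lists the 5EL and 5ELKO libraries under what appear to be separate animal numbers. For EL and ELKO the sources used here give no such numbers, so p-values there may measure technical spread.

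From the deposited log2 values, limma 3.58.1 in R 4.3.3 (lmFit, eBayes with trend) was fitted, after a filter at a log2 value of 3.32 (10 on the linear scale) in a number of libraries equal to the smallest group, 4 of 9 for 5ELKO against 5EL and 3 of 15 otherwise. Benjamini-Hochberg adjustment ran over all genes tested. The fits were checked on simulated data with known changes. Correlations used 100000 permutations within groups. Level per kb is the log2 value minus log2 of the exon length in kb. Like-level genes lie within 0.5 log2. The members and lists were chosen with earlier results of these data known. Named genes were the 9 members, up to 3 genes per list and comparison with the smallest nominal p under 0.05, and the 5 genes most like Acta2, Rgs5 and Vtn. Synpo2 and Sncg in 5EL against EL, which ranked below these 3, were named after their values were seen.

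The replicate numbers of the labels were checked for pairing by the correlation of same-numbered libraries' deviations from their group means. EL and ELKO correlated at 0.453, 0.325 and 0.742. Libraries of unlike number were not correlated, so these values cannot establish that the numbers pair the libraries. No source used here says what such libraries would share. Lower values were found for the other groups, with -0.244 to 0.143 for 5EL and 5ELKO. Alternatives were the filter, recentring of libraries on their median, the replicate block, all 15 libraries in one fit, robust estimation, libraries left out, an endothelial covariate and, for correlations, EL and ELKO permuted together by number.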

Additional observations from a re-analysis of the deposited data

How the results depend on the processing

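The alternatives gave 705 values for 41 single-gene results, of which 646 kept their direction and their side of the nominal threshold, 46 changed sign with no p under 0.05 (smallest 0.138) and 13 newly passed a nominal p. These results cover all 9 genes in the pairwise comparisons. For the interaction only Pdgfrb and Vtn were counted, and for the averaged 5xFAD effect only Acta2, Rgs5 and Notch3. Over all alternatives run, 0 of 9 genes passed an adjusted p in any comparison. The deposited values give no counts, so what depth limits cannot be computed, and Cnn1 had no value under the filter at 5. Leaving out 1 library moved the number of genes at a nominal p over 0 to 1 in 5ELKO against 5EL, ELKO against EL and 5EL against EL, over 0 to 2 for the averaged 5xFAD effect, and the pairs at an adjusted p over 0 to 1; the libraries are named with the results. The same step changed signs of log2 differences in 18 results: in 5ELKO against 5EL, Acta2 from -0.11 to 0.0051, Myh11 from -0.055 to 0.090, Notch3 from -0.026 to 0.087, Rgs5 from -0.090 to 0.064 and Tagln from -0.016 to 0.12; in ELKO against EL, Cnn1 from -0.011 to 0.044, Des from -0.047 to 0.026, Myh11 from -0.16 to 0.12, Notch3 from -0.046 to 0.095, Rgs5 from -0.10 to 0.054, Tagln from -0.14 to 0.11 and Vtn from -0.16 to 0.0036; in 5ELKO against ELKO, Acta2 from -0.16 to 0.013, Cnn1 from -0.038 to 0.017, Des from -0.079 to 0.0044, Myh11 from -0.14 to 0.13, Tagln from -0.11 to 0.14 and Vtn from -0.017 to 0.15.

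Recentring turned Tagln (-0.0074) and Cnn1 (-0.0033) in ELKO against EL and Tagln (0.0025) in 5ELKO against ELKO. Leaving out the 2 libraries high in choroid plexus genes turned Myh11 (0.12) and Cnn1 (-0.011) in ELKO against EL and Cnn1 (0.017) in 5ELKO against ELKO, and gave 1 pair at an adjusted p, Acta2 with Myh11. Values not centred on group means gave 2 pairs, Acta2 with Rgs5 and Rgs5 with Vtn. The endothelial covariate turned Myh11 (-0.043), Notch3 (-0.011) and Rgs5 (-0.073) in 5ELKO against 5EL and gave 1 gene in the averaged 5xFAD effect, Acta2 (-0.11). The causes were not tested. The replicate block turned Vtn in 5ELKO against ELKO (-0.0056), gave 1 gene in 5EL against EL, Acta2 (-0.20), and 2 in the averaged effect, Acta2 (-0.18) and Rgs5 (-0.16), and raised the nominal calls of the interaction over all genes from 432 to 784. It changed no other call. What same-numbered libraries share in these comparisons is not known from the sources used here. They correlated at 0.0538 to 0.228 for 5EL with EL and at -0.32 to 0.214 for 5ELKO with ELKO.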

Other observations

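Endothelial genes were read beside the mural ones. In 5ELKO against 5EL, 2 of 15 were higher at an unadjusted p under 0.05 (2.49% of all genes passed), the vascular endothelial growth factor receptor genes Flt1 (log2 difference 0.26, SE 0.0858) and Kdr (0.25, SE 0.11), with adjusted p = 0.999 for both by limma. Flt1 was also higher in 5ELKO than in ELKO (0.22), with 1 of 15 called there, against 2.37% of all genes. For the interaction of Lilrb4a deletion and 5xFAD, 2 of 15 passed that threshold (2.73% of all genes) in opposite directions, Flt1 at 0.29 and the glucose transporter gene Slc2a1 at -0.37, with adjusted p = 1 for both by limma. Of 14 fibroblast and meningeal genes, 0 were higher and 1 was lower in 5ELKO than in 5EL at that threshold, against 2.49% of all genes. Skeletal muscle genes were scarce: 6 of 10 were under the detection threshold in every library, Ckm and Myh4 among them, and the means of the 4 tested lay between 4.81 and 4.95.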
